A study of Mus musculus with 6 samples.

Results

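Gabra6, Cbln3, Fat2, Pcp2, Car8 and En2 are genes best known from the cerebellum, and they were measured here in tissue labelled as paraventricular nucleus, a small nucleus of the hypothalamus. The 6 genes were taken from the 51826 genes of the deposited table by name, as markers of tissue far from the hypothalamus that had been seen in some of the libraries. They were chosen by their CPM levels in these same libraries, so these levels and their differences are given as a description with no test. The mRNA of 6 mouse libraries was sequenced. The KO group, labelled as knockout of ADAM17 in glutamatergic neurons, comprised 2 males, here KO 1 and KO 2, and 1 female, KO F1, and the WT group, labelled wild type, comprised the males WT 1 and WT 2 and the female WT F1. ADAM17 is a membrane protease that sheds proteins from the cell surface, and the stated aim was the effect of its loss on gene expression in this nucleus. The labels state neither the driver of the knockout nor strain, age or pooling of the mice, and nothing says that the libraries of a group came from separate animals, so p-values measure only the spread between these libraries.

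The cerebellar cortex is built around a simple circuit. Granule cells, small and very numerous excitatory neurons, send parallel fibres to the Purkinje cells, large inhibitory neurons whose axons are the only output of the cortex. Both cell types express genes that are rare in the rest of the brain, and the territory as a whole is marked early in development by engrailed transcription factors at the border of midbrain and hindbrain. The paraventricular nucleus holds vasopressin, oxytocin and corticotropin-releasing hormone neurons and contains neither cell type.

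Total counts per library lay between 35114426 and 45355375 in KO and between 40652708 and 54421330 in WT. KO 1, the shallowest library, and WT F1, the deepest, stand apart in the genes described here, and the comparison of KO with WT is given with and without them. KO 1 also departed over the whole table. The chi-square of counts per degree of freedom was 199.23 against KO 2 and 225.74 against KO F1, while KO 2 against KO F1 gave 29.34. Within WT it lay between 16.27 and 50.68. Of the 18956 genes tested, 28.3% were highest in KO 1 and 20.0% in WT F1. Mitochondrially encoded genes took 20.63% of the counts in KO 1 and between 7.22% and 9.2% in the other 5 libraries, and the part of this share in the results was not tested. Adam17 stood at 15.3, 14.5 and 13.9 CPM in KO 1, KO 2 and KO F1 and at 17.0, 17.2 and 15.6 CPM in WT 1, WT 2 and WT F1 (log2 fold change −0.19, edgeR adjusted p = 0.747), and the deposited values do not show which part of the gene was deleted. CPM are counts relative to library size after TMM scaling in edgeR. Defining genes of the labelled nucleus were present in every library, with Avp between 5.24 and 13.8 CPM in KO and between 5.96 and 38.2 CPM in WT, and Oxt between 4.0 and 15.1 CPM in KO and between 5.74 and 27.5 CPM in WT. Sim1 and Otp, transcription factors needed to form this nucleus, were lower, and reached 1.1 and 7.99 CPM in KO and 2.51 and 9.54 CPM in WT. Crh lay between 7.15 and 8.09 CPM in KO and between 5.46 and 7.7 CPM in WT. Of the list of 9 genes for this nucleus 0 passed the KO versus WT test in edgeR, with 0 at an unadjusted p under 0.05 and 0 in DESeq2. Over all 18956 genes these counts were 1 (0.00528%), 1210 (6.38%) and 75 (0.396%), so 9 genes are too few to read anything from 0. That list also held Trh, highest in WT F1 at 23.4 CPM, the peptide gene Sst, with between 189 and 249 CPM, and the transcription factor genes Pou3f2 (23.2 to 44.3 CPM) and Arnt2 (292 to 351 CPM), which many other brain regions express too.

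Promoter windows of the members, from 250 bases before to 50 bases after a RefSeq transcript start (GRCm38.p6), were available for 4 of the 6 genes, Gabra6, Cbln3, Fat2 and Pcp2. Gabra6 and Cbln3, the granule cell pair whose CPM profiles lay closest together, and Pcp2, the Purkinje cell gene, are shown. In the first 2 windows capitals mark TTGGC on either strand, the half-site of nuclear factor I proteins, which are known to act on granule cell genes in the mouse. In the last window capitals mark AGGTCA on either strand, the half-site of nuclear receptors such as RORA, a factor that Purkinje cells need.
Gabra6, chr11:42321023-42321322, minus strand: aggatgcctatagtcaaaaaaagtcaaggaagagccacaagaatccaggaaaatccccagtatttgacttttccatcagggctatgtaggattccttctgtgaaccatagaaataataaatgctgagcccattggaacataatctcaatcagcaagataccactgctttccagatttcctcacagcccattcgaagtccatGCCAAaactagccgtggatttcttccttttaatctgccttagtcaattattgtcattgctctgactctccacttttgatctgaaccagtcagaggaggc
Cbln3, chr14:55884207-55884506, minus strand: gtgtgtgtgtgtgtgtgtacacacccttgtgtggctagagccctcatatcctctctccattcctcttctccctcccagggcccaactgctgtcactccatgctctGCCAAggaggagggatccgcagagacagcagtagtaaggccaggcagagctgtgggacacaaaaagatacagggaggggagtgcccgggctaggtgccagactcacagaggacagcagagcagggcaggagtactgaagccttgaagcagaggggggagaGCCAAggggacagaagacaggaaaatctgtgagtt
Pcp2, chr8:3625498-3625797, minus strand: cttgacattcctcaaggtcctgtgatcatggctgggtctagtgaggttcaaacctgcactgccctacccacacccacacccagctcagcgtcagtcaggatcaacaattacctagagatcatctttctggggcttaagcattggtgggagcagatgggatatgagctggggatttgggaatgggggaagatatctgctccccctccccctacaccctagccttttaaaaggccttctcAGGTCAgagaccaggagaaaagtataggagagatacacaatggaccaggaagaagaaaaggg
TTGGC occurred 1 time in the Gabra6 window, 2 times in the Cbln3 window and 0 times in that of Fat2, the other granule cell gene, and 46.7% of all 32851 mouse promoter windows of this length hold it. AGGTCA occurred 1 time in the Pcp2 window and 1 time in that of Fat2, against 16.3% of all windows. Pcp2 has 4 listed starts, of which the first is shown, and AGGTCA is in 3 of the 4 overlapping windows. These matches describe the letters of the windows and nothing in the libraries bears on binding there.

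Among the granule cell genes, Gabra6 encodes the alpha-6 subunit of the GABA-A receptor, which granule cells use and most other neurons lack (ENSMUSG00000020428, chromosome 11, 42306437 to 42321072, minus strand, read as GRCm38). It had 399, 3 and 0 counts in KO 1, KO 2 and KO F1, and 0, 32 and 1114 counts in WT 1, WT 2 and WT F1. These are 13.9 and 0.067 CPM in KO 1 and KO 2, and 0.753 and 18.9 CPM in WT 2 and WT F1. So 1 library of each genotype held nearly all of the signal, WT 2 held a small amount, and the remaining 3 had 0 to 3 counts. A count of 0 allows up to 0.0735 CPM in KO F1 and up to 0.0662 CPM in WT 1, a limit of 3 counts that covers counting error only. KO 1 was 18.4-fold above the highest of the 4 low libraries.

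Cbln3, a secreted protein of the cerebellin family that granule cells release at parallel fibre synapses (ENSMUSG00000040380, chromosome 14, 55878920 to 55884256, minus strand), repeated the order of Gabra6 at the top. It stood at 33.5, 0.424 and 0.294 CPM in KO 1, KO 2 and KO F1, and at 0.53, 2.14 and 65.4 CPM in WT 1, WT 2 and WT F1. The 95% Poisson interval of WT 2 ran from 1.72 to 2.63 CPM, above those of KO 2 (0.256 to 0.663), KO F1 (0.152 to 0.513) and WT 1 (0.339 to 0.788). Unlike Gabra6, Cbln3 had counts in every library, with 12 as the lowest, in KO F1.

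Fat2, a very large cadherin of parallel fibres (ENSMUSG00000055333, chromosome 11, 55250609 to 55336564, minus strand), stood at 14.3, 0.893 and 0.147 CPM in KO 1, KO 2 and KO F1, and at 0.221, 1.08 and 43.9 CPM in WT 1, WT 2 and WT F1. WT F1 again came first and KO 1 second. KO 2 and WT 2 could not be told apart at this depth, with intervals of 0.638 to 1.22 CPM in KO 2 and 0.793 to 1.44 CPM in WT 2. Summed over the 3 granule cell genes, the libraries held 61.6, 1.38 and 0.441 CPM in KO 1, KO 2 and KO F1, and 0.75, 3.98 and 128 CPM in WT 1, WT 2 and WT F1.

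Of the Purkinje cell genes, Pcp2, a regulator of G protein signalling in Purkinje cells and retinal bipolar cells (ENSMUSG00000004630, chromosome 8, 3623371 to 3625545, minus strand), stood at 9.55, 0.357 and 0.22 CPM in KO 1, KO 2 and KO F1, and at 0.265, 0.518 and 21.2 CPM in WT 1, WT 2 and WT F1. Outside the top pair of libraries its intervals overlapped, from 0.101 to 0.784 CPM in all. Pcp2 overlaps Pet100 on the opposite strand, and the counting strand is not given, so reads of the pair may be split. Pet100 did not share the pattern, with 4.06, 8.13 and 9.77 CPM in KO 1, KO 2 and KO F1 and 9.54, 9.49 and 7.38 CPM in WT 1, WT 2 and WT F1, lowest in the library where Pcp2 came second.

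Car8 encodes a carbonic anhydrase-related protein without enzyme activity that binds the inositol trisphosphate receptor and is abundant in Purkinje cells (ENSMUSG00000041261, chromosome 4, 8143362 to 8239041, minus strand). It stood at 43.5, 8.73 and 9.53 CPM in KO 1, KO 2 and KO F1, and at 9.36, 11.3 and 78.1 CPM in WT 1, WT 2 and WT F1. It differed from the first 4 genes in having a floor, since the 4 low libraries lay between 8.73 and 11.3 CPM. KO 1 was 4.61-fold and WT F1 8.27-fold above the median of these 4.

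En2, the engrailed homeobox factor of cerebellum and midbrain (ENSMUSG00000039095, chromosome 5, 28165694 to 28172166, plus strand), stood at 6.15, 1.09 and 1.57 CPM in KO 1, KO 2 and KO F1, and at 1.66, 4.17 and 13.7 CPM in WT 1, WT 2 and WT F1. WT 2 came closest to the top pair in this gene. It had the same 177 counts as KO 1, so that their order rests on the scaling, with KO 1 1.48-fold above it in CPM but 2.55 TPM in KO 1 and 2.74 TPM in WT 2. Of the genes that overlap Car8 and En2, Gm11799 had 2 counts in all and Gm43610 between 0 and 9 per library.

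**Figure D1:**
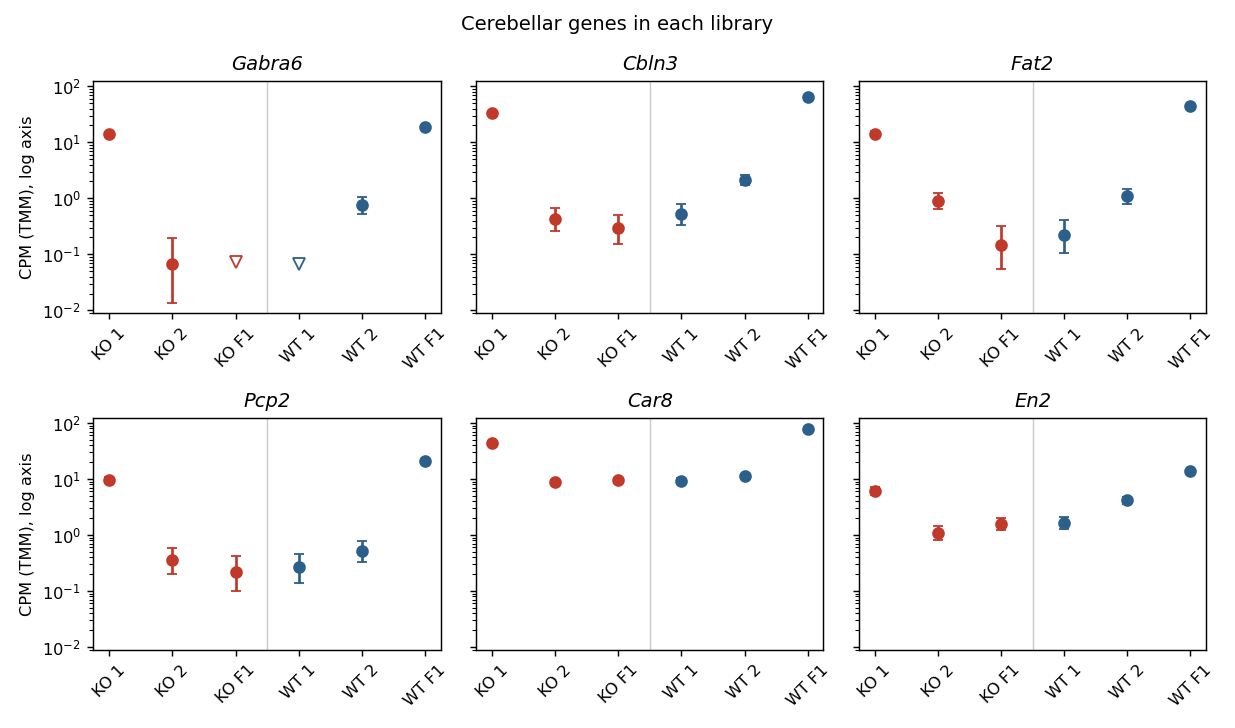
Level of each gene per library as CPM with TMM scaling on a log axis, KO libraries in red on the left and WT libraries in blue on the right of each panel. Bars are 95% Poisson intervals of the count, which cover counting error only, and open triangles mark the limit of 3 counts where the count was 0. In all 6 panels WT F1 is highest and KO 1 second, which for En2 holds in CPM and not in TPM.

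On the CPM scale the 6 genes shared their 2 highest libraries, WT F1 first and KO 1 second. WT 2 came next in each, though in Fat2, Pcp2 and Car8 its 95% interval overlapped that of the library below it. With TPM this order held for 5 of the 6, En2 being higher in WT 2 than in KO 1. All 6 passed the filter on low counts, Gabra6 with 10 counts or more only in KO 1, WT 2 and WT F1. At least 10 counts in every library were reached by 3 of the 6, Cbln3, Car8 and En2. KO 1 and WT F1 were the highest pair for 1841 of the 18956 genes tested (9.71%), and for 87 of them (0.459%) both were also at least 2-fold above the median of the other 4. The top libraries differ in genotype and in sex, KO 1 being male and WT F1 female, so that neither label separates the high libraries from the low ones. For these genes the spread between libraries was among the widest in the table. The genes were chosen by their levels in these same libraries, which favours a wide spread and a shared high pair, so both are only described. The SD of log2(CPM + 0.1) over the 6 libraries was 3.49 for Gabra6, 3.23 for Cbln3, 3.02 for Fat2 and 2.66 for Pcp2, at ranks 8, 12, 15 and 21 of the 18956. It was 1.36 for Car8 and 1.35 for En2, at ranks 146 and 149. In bulk tissue, fewer cells of a type and less RNA per cell cannot be told apart.

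The genes did not keep 1 ratio between the top pair of libraries. WT F1 exceeded KO 1 by 1.36-fold in Gabra6, 1.95-fold in Cbln3, 3.07-fold in Fat2, 2.22-fold in Pcp2, 1.79-fold in Car8 and 2.22-fold in En2. Gabra6 made up 22.5% of the summed counts of the 3 granule cell genes in KO 1 (95% exact binomial interval 20.6 to 24.5) and 14.7% in WT F1 (14.0 to 15.6). Fat2 made up 23.2% (21.2 to 25.2) in KO 1 and 34.2% (33.2 to 35.3) in WT F1. Cbln3 made up 54.4% (52.0 to 56.7) in KO 1 and 51.0% (49.9 to 52.2) in WT F1, intervals that only just overlap. The shares of Gabra6 and Fat2 thus differed by more than counting error between these 2 libraries, a comparison of the libraries and not of the genotypes. In WT 2, with 169 counts in all, Gabra6 took 18.9% (13.3 to 25.7) and Fat2 27.2% (20.7 to 34.6), which overlaps the interval of KO 1 for both genes and that of WT F1 for both.

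On the TPM scale, which corrects for transcript length and so allows levels to be set side by side between genes, the order of the 6 was the same in both high libraries. In KO 1 Pcp2 stood at 26.5 TPM, Car8 at 16.6, Cbln3 at 10.4, Gabra6 at 8.61, En2 at 2.55 and Fat2 at 1.44 TPM. In WT F1 Pcp2 stood at 99.9 TPM, Car8 at 48.1, Cbln3 at 32.8, Gabra6 at 19.6, En2 at 9.14 and Fat2 at 7.19 TPM. In the other 4 libraries Car8 came first, at 4.79 and 5.63 TPM in KO 2 and KO F1 and at 5.7 and 6.82 TPM in WT 1 and WT 2. The summed TPM of the 6 genes was 66.1, 6.62 and 7.37 in KO 1, KO 2 and KO F1, and 7.46, 13.5 and 217 in WT 1, WT 2 and WT F1. TPM ran lower against CPM in KO 1 than in the other libraries for 5 of the 6 genes, Pcp2 being the exception, and for Car8 stood at 0.382 TPM per CPM in KO 1 and 0.549 to 0.616 in the other 5 libraries. For Pcp2 the deposited TPM did not follow the counts closely, because 1 CPM corresponded to between 1.45 TPM, in WT 1, and 4.72 TPM, in WT F1.

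Other genes of the cerebellum were taken from lists that did not hold the 6. Of 24 granule cell and rhombic lip genes 22 could be tested, and 10 of these (45.5%) had KO 1 and WT F1 as their highest pair. Neurod1 is a factor for granule cell differentiation that also acts in forebrain neurons. It was the only one of the 22 in which both libraries were in addition at least 2-fold above the median of the other 4. Neurod1 stood at 40.2 CPM in KO 1, 30.6 CPM in WT F1 and 8.72 to 15.7 CPM in the others, so that KO 1 was above WT F1, unlike in the 6 genes. Most of the list is expressed outside the cerebellum, and of its most abundant genes Zic1, Calb2 and Etv1 had the pair highest without reaching 2-fold in both. Zic1 stood at 134, 30.1 and 57.1 CPM in KO 1, KO 2 and KO F1 and at 67.6, 46.1 and 82.5 CPM in WT 1, WT 2 and WT F1. Calb2, the gene of calretinin, stood at 81.2, 44.6 and 55.2 CPM in KO and 49.2, 53.8 and 117 CPM in WT in the same order. Gabrd, the delta subunit of the GABA-A receptor, was lowest in the pair, at 42.0 CPM in KO 1 and 36.5 CPM in WT F1, against 53.8 to 69.8 CPM in the other 4. Nfix ranged from 191 to 439 CPM, Etv1 from 66.7 to 108 CPM and Cadps2 from 63.2 to 79.3 CPM. Among the genes with the widest range, Barhl1 was highest in WT 2 at 3.74 CPM, and Barhl2 and Il16 were highest in WT F1 at 5.02 and 14.9 CPM. Atoh1, the gene that specifies granule cell precursors before birth and soon after it, had no count in any library.

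Of 30 Purkinje cell genes 29 could be tested. For 8 of them (27.6%) the pair was highest, and for 4 both libraries were at least 2-fold above the median of the rest. These 4 were Ppp1r17, a phosphatase inhibitor of Purkinje cells, Lhx1, a LIM homeobox factor, Arhgef33 and Nrk. Ppp1r17 stood at 6.91, 0.536 and 0.759 CPM in KO 1, KO 2 and KO F1, and at 1.72, 0.588 and 12.7 CPM in WT 1, WT 2 and WT F1. Lhx1 stood at 6.18, 0.67 and 1.76 CPM in KO and at 1.59, 2.38 and 8.11 CPM in WT in the same order. Arhgef33 had 100 counts in KO 1 and 592 in WT F1, with 32 to 76 counts elsewhere, and Nrk had 44 and 184 counts in these libraries and 4 to 16 counts elsewhere. Skor2, a corepressor found in Purkinje cells, was too low to test, with 13, 0 and 0 counts in KO 1, KO 2 and KO F1 and 4, 2 and 69 counts in WT 1, WT 2 and WT F1. The most abundant genes of the list, which forebrain neurons or astrocytes also express, did not have the pair as their highest libraries. Itpr1 and Itpka were lowest in the pair. Itpr1 stood at 603 CPM in KO 1 and 541 CPM in WT F1, against 638 to 785 CPM in the other 4. Itpka stood at 55.9 CPM in KO 1 and 72.9 CPM in WT F1, against 91.9 to 101 CPM in the other 4. Pcp4 was highest in KO 1 at 373 CPM and lowest in WT F1 at 195 CPM, and Dner was lowest in KO 1 at 163 CPM and highest in WT F1 at 271 CPM. The ranges were 678 to 821 CPM for Aldoc and 145 to 271 CPM for Cck. Lhx5 stood at 2.88 CPM in KO 1 and was highest in WT F1, at 5.19 CPM.

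Bergmann glia are the astrocytes that line the Purkinje cell dendrites. Of the 10 genes listed for them, all tested, 3 had the pair as their highest libraries and 0 reached 2-fold in both. Slc1a3, the glial glutamate transporter, lay between 446 and 609 CPM, Gpr37l1 between 109 and 184, Sept4 between 82.5 and 119, Etv5 between 80.8 and 136, Fgfr3 between 66.5 and 90.9, Hopx between 13.3 and 26.8, Gdf10 between 7.11 and 16.6 and Wif1 between 0.773 and 1.63 CPM. These genes are also expressed in astrocytes of other regions.

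Genes that mark the position of midbrain and hindbrain were mostly scarce, and 10 of 23 could be tested. En1, the partner of En2 at the border of midbrain and hindbrain, stood at 2.88, 0.491 and 0.416 CPM in KO 1, KO 2 and KO F1, and at 0.132, 2.5 and 4.48 CPM in WT 1, WT 2 and WT F1. As in En2, WT 2 came next after the top pair. Pax2 had 46, 16 and 9 counts in KO and 15, 8 and 62 counts in WT in the same order. In CPM it was higher in KO 1, at 1.6, than in WT F1, at 1.05. Pax2 and En1 were the genes of the 10 with the pair highest and both libraries at least 2-fold above the median of the other 4. Pax5 stood at 2.95 and 4.7 CPM in KO 1 and WT F1 but also at 3.15 CPM in WT 2, and Gata3 at 2.6 and 4.38 CPM, with 3.04 CPM in WT 2 and 0.0883 CPM in WT 1. Lmx1b stood at 0.833 CPM in KO 1 and was highest in WT F1, at 2.77 CPM. Wnt1 and Gbx2, a gene of the thalamus too, did not have both libraries as their highest pair. The 11 Hox genes of the list, which are active behind the cerebellum in the brainstem and not in it, summed to 44, 0 and 0 counts in KO 1, KO 2 and KO F1 and to 10, 0 and 52 counts in WT 1, WT 2 and WT F1. Relative to library size the sum was larger in KO 1, at 1.53 CPM, than in WT F1, at 0.882 CPM. In KO 1 and in WT F1 8 of the 11 had at least 1 count, and in WT 1 it was 2 of the 11. Hoxa4 had 14 and 11 counts in KO 1 and WT F1 (0.486 and 0.187 CPM) and Hoxb3 had 8 and 11 (0.278 and 0.187 CPM). Otp, of the list for the paraventricular nucleus, was the only gene of that list with the pair highest and at least 2-fold above the median of the rest.

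**Figure D2:**
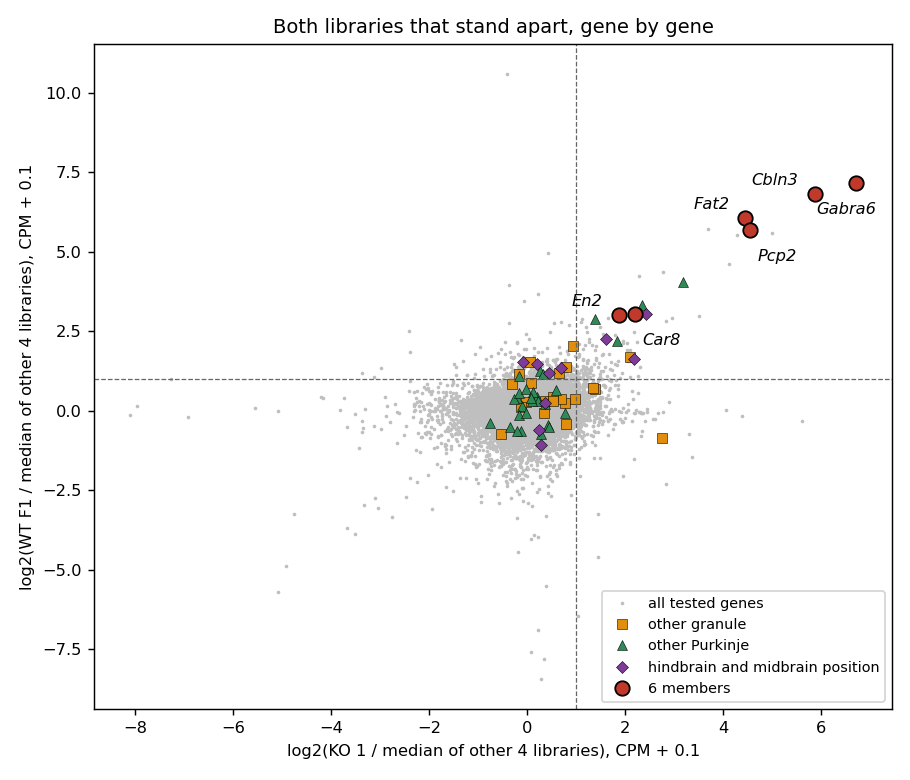
For every tested gene, the log2 ratio of KO 1 (horizontal) and of WT F1 (vertical) to the median of the other 4 libraries, after adding 0.1 CPM, with dashed lines at 2-fold. Gabra6 lies at 6.71 and 7.15, Cbln3 at 5.86 and 6.83 and En2 at 1.87 and 3.01, while most genes of the other lists sit near the grey cloud of all genes around 0.

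Likeness of profiles was measured as the root mean square difference of log2(CPM + 0.1) over the 6 libraries, each gene centred on its own mean, among genes with a mean of at least 1 CPM. The 6 genes were chosen by their levels in these same libraries, which favours close profiles and low ranks among them, so both are only described. Within the 6, Gabra6 and Cbln3 were each other's nearest gene of all 15453 ranked, at 0.45, and Fat2 and Pcp2 were each other's nearest at 0.59. A granule cell gene and a Purkinje cell gene thus lay closer together than Fat2 did to Gabra6 (0.82), and the Purkinje cell pair Pcp2 and Car8 lay 1.2 apart. Car8 and En2 were 0.48 apart. Seen from Car8 or En2 the 4 genes without a floor lay at distances of 1.2 to 2.07 and at ranks 4222 to 15384. Seen from those 4 genes, at the same distances, Car8 and En2 were at ranks 7 to 13. The distance takes in the size of the differences, which was smaller in Car8 and En2 (SD 1.36 and 1.35, against 2.66 to 3.49). A large distance therefore does not mean another order of the libraries. These neighbourhoods depended on the scale: with TPM, Cbln3 and Pcp2 were each other's nearest gene at 0.44, Fat2 and Pcp2 lay 0.85 apart and Gabra6 and Cbln3 0.53, and with a pseudocount of 0.5 CPM the rank of Pcp2 from Car8 was 38. The mean profile of the 3 granule cell genes had Pcp2 as its nearest gene at 0.68, followed by Cnpy1, a gene known in zebrafish from the border of midbrain and hindbrain, at 0.7. Cnpy1 stood at 4.86, 0.156 and 0.049 CPM in KO 1, KO 2 and KO F1, and at 0.155, 1.04 and 11.6 CPM in WT 1, WT 2 and WT F1. After a gap came Crtam (1.38), an adhesion molecule first known from T cells. Genes of serotonin neurons followed, the transporter gene Slc6a4 (1.49) and the synthesis enzyme gene Tph2 (1.6), with the glycine transporter gene Slc6a5 of hindbrain inhibitory neurons between them (1.54). Ppp1r17 (1.68), En1 (1.7) and Il20rb (1.82) completed the 8. Slc6a4 was higher in WT 2 than in KO 1, at 2.88, 0.134 and 0 CPM in KO 1, KO 2 and KO F1 and 0.132, 5.79 and 12.2 CPM in WT 1, WT 2 and WT F1. Tph2 showed the same order at the top, with 3.78 CPM in KO 1 against 6.5 CPM in WT 2 and 15.2 CPM in WT F1. Slc6a5 was highest in KO 1, at 11.4 CPM, against 7.86 CPM in WT F1.

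For the mean of the Purkinje cell pair the nearest gene of 15452 was Ppp1r17, at 0.64, itself a Purkinje cell gene. Crtam (0.7), Il20rb (0.74), Cnpy1 (0.79), Zfp385c (0.89), Arhgef33 (0.9), Lhx1 (0.92) and Tomm5 (1.01), a subunit of the import pore of mitochondria, followed, with En2 at 0.86 among them and 1 unnamed gene model passed over. Nearest to En2 were Lhx1 and Tomm5, both at 0.39, then Il20rb (0.51), the homeobox genes Uncx (0.52) and Irx3 (0.57), Arhgef33 (0.56), Zfp385c (0.59) and Irx1 (0.65). Uncx stood at 2.36, 0.715 and 1.35 CPM in KO 1, KO 2 and KO F1 and at 0.927, 1.25 and 4.99 CPM in WT 1, WT 2 and WT F1. Irx3 was higher in WT 2, at 4.61 CPM, than in KO 1, at 4.2 CPM. These distances rest on 6 libraries, of which 2 set most of each profile.

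**Figure D3:**
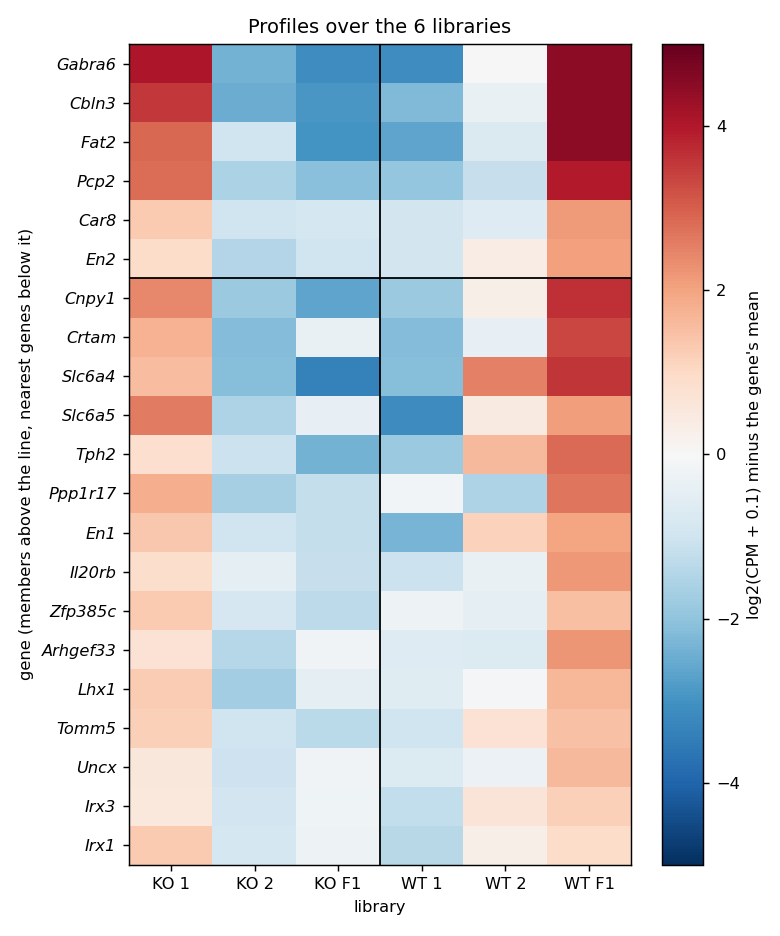
Log2(CPM + 0.1) minus each gene's mean in the 6 libraries, KO on the left and WT on the right of the vertical line, with the 6 genes above the horizontal line and their nearest genes below it. Red columns for KO 1 and WT F1 run through nearly all rows. Slc6a4, Tph2 and En1, and more faintly Tomm5 and Irx3, are among the genes that also lie above their mean in WT 2.

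The comparison of KO with WT asks whether loss of ADAM17 in glutamatergic neurons changed these transcripts. KO and WT libraries overlapped in all 6 genes. Over all 18956 genes tested 2639 (13.9%) had no overlap, so 6 genes, chosen by their levels, are too few to read anything from this. Means were 4.64 ± 7.98 CPM in KO and 6.55 ± 10.7 CPM in WT for Gabra6, 11.4 ± 19.1 and 22.7 ± 37.0 CPM for Cbln3 in KO and WT, and 20.6 ± 19.9 and 32.9 ± 39.1 CPM for Car8 in KO and WT (SD, n = 3 each). The SD exceeded the mean in both groups for Gabra6, Cbln3, Fat2 and Pcp2. With sex as a term, the edgeR fit gave log2 fold changes, KO minus WT, of 1.94 (SE 3.89) for Gabra6, 1.73 (SE 3.51) for Cbln3, 1.38 (SE 3.21) for Fat2, 1.42 (SE 3.04) for Pcp2, 0.08 (SE 1.25) for Car8 and −0.77 (SE 1.04) for En2. The sign depended on the model and on single libraries. Without the sex term all 6 lay below 0, between −1.61 and −0.55. In males alone, where KO 1 is in the contrast and WT F1 is not, they ranged from 0.29 for En2 to 4.2 for Gabra6. The fits without WT F1 or KO F1 gave nearly the same range, from 0.28 to 4.2. In those fits the sex term takes up the remaining female, so they repeat the comparison of the males and are no separate result. Without KO 1 the log2 fold changes ranged from −7.49 for Gabra6 to −1.36 for Car8, and without WT 1 or WT 2 all 6 were likewise below 0. With both KO 1 and WT F1 left out, an alternative chosen after seeing the data, 5 of the genes still passed the filter, with values from −1.87 for Cbln3 to −0.17 for Car8. Sex could not be a term there, with KO F1 as the 1 female left.

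**Figure D4:**
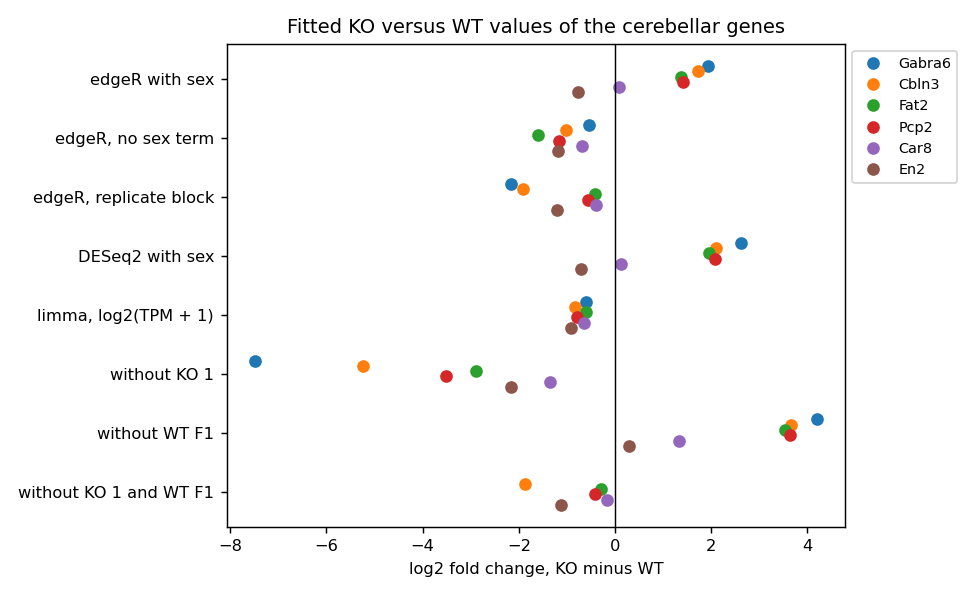
Fitted log2 fold change, KO minus WT, of each of the 6 genes under 8 settings, 1 colour per gene. Gabra6 moves between −7.49 without KO 1 and 4.2 without WT F1, and Car8 and En2 move least.

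Of all 18956 genes, 1 passed the KO versus WT test (0.00528%, edgeR adjusted p under 0.05), and it belongs to none of the lists. That count was 7, 0 and 15 without KO 1, KO 2 and KO F1, and 0, 0 and 20 without WT 1, WT 2 and WT F1. Among the granule cell list 0 of 22 tested genes passed in edgeR, with 3 at an unadjusted p under 0.05, against 1210 of all 18956 (6.38%), and with 10 log2 fold changes above 0 and 12 below. Of the Purkinje cell list 0 of 29 passed, with 2 at an unadjusted p under 0.05, near that share, and 7 above 0 and 22 below. For Bergmann glia and for midbrain and hindbrain position 0 of 10 passed in each, with 1 at an unadjusted p under 0.05 in each. Over all genes tested 9364 lay above 0 and 9592 below. DESeq2 called 1 gene of these lists, Eomes, which marks unipolar brush cells of the cerebellum and also output neurons of the olfactory bulb and cortical progenitors (log2 fold change 2.15, DESeq2 adjusted p = 0.0214, and 0.735 in edgeR). Eomes stood at 9.13, 3.86 and 1.22 CPM in KO 1, KO 2 and KO F1, and at 1.32, 0.636 and 0.662 CPM in WT 1, WT 2 and WT F1. It was thus high in KO 1 but not in WT F1, and its KO female library lay below the highest WT library.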

How the data were processed

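The authors deposited 1 table of Ensembl genes which, per the file headers, holds counts, TPM and FPKM for the 6 libraries. The submitters' processing notes name Trimmomatic 0.36, FastQC 0.11.2 and bedtools 2.26.0, and the aligner, counter, strand setting and genome build were not given in the sources used here. Of the gene IDs 51633 (99.6%) matched GENCODE M21, 94.1% of them with identical coordinates, so positions were read as GRCm38. The deposited counts were tested as they stand with edgeR 4.0.16 in R 4.3.3 (filterByExpr, TMM, robust quasi-likelihood fits with genotype and sex, Benjamini-Hochberg adjustment over the 18956 genes kept). The deposited TPM values were used for levels between genes and, with limma 3.58.1, for an alternative. The deposited FPKM values are proportional to TPM in each library and entered no test. DESeq2 1.42.0 was a further alternative. SE was obtained from the log2 fold change and the root of its F value.

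The members and lists were chosen with earlier results of these data known. Named list genes are, by rule, up to 6 with the highest mean TPM and up to 4 with the widest range at a mean of at least 1 CPM; the 8 nearest genes per profile are named likewise, and other genes were named after their values were seen. Some genes that the rule names are not reported here. Septin 4 was matched by its ID because the table lists its symbol as a date. The fit was tested on simulated counts with an equal, small spread for all genes and no library that stood apart. That check covers the code and not the behaviour of the fit in libraries such as KO 1 and WT F1. Intervals cover counting error only.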

Additional observations from a re-analysis of the deposited data

Results flagged for a closer look

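Among the 61 genes named by rule, 8 (13.1%) had both male KO libraries on one side of both male WT libraries and the KO female on the opposite side of the WT female. Over all tested genes the share was 21.1%. The difference between the sexes was not tested, with 1 female per genotype. Itpr1 had a log2 ratio of KO to WT of 0.54 in females and Gabrd of 0.7, and both were lower in the KO males than in the WT males. Etv1 (−0.6), Il16 (−2.45), Gdf10 (−0.59), Wif1 (−0.46), Slc1a3 (−0.06) and Fgfr3 (−0.05) were lower in the KO female and higher in the KO males. In Il16 the KO males stood at 6.84 and 7.28 CPM and the WT males at 4.04 and 3.06 CPM, and the females at 2.72 CPM in KO and 14.9 CPM in WT. In Gdf10 the KO males stood at 16.6 and 15.3 CPM and the WT males at 8.52 and 7.11 CPM, and the females at 10.9 CPM in KO and 16.4 CPM in WT. The 6 cerebellar genes do not show this, since KO 1 lay above and KO 2 below WT 2 in each on the CPM scale.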

How the results depend on the processing

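The count of 1 gene over the whole table became 4 with no filter on low counts, 75 with DESeq2, 3 without the sex term, 4 with limma on log2(TPM + 1), 5 on log2(TPM + 0.1), 18 in males only and 27 with both libraries that stand apart left out (chosen after seeing the data), and it ranged from 0 to 20 when each library was left out in turn. Other scalings and a minimum of 10 counts left it at 1. With the replicate label as a block (replicate block) it was 0; same-labelled libraries of the genotypes did not deviate together (correlations of −0.05, 0.02 and 0.01), so the labels were not taken to pair animals. The granule cell list had 1 call with DESeq2 and the Purkinje cell, Bergmann glia and position lists had 0 in every setting run. Over 9 other settings with all 6 libraries, 49 of 51 log2 fold changes of the 6 genes moved by less than 1 SD between replicates, yet 21 of the 51 changed sign. With a pseudocount of 0.5 CPM or with TPM (for these distances chosen after seeing the data), 6 to 8 of the 8 nearest genes of each profile were shared, and the distance of Pcp2 from Car8, 1.2 as reported, was 0.77 and 1.78. The distance of each gene from the mean of the other 5 changed with the scale. That of Pcp2 was 0.42 in CPM with the smaller pseudocount, 0.28 with the larger pseudocount and 0.92 with TPM. For Gabra6 it was 1.18, 0.51 and 1.19 in the same order. At 3 counts the limit of detection was 0.0509 to 0.104 CPM.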

Other observations

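Some genes of the lists did not follow the 6 genes. Barhl1, Lhx5 and Gata3 stood in KO F1 at 2.72, 3.11 and 2.52 CPM, close to KO 1 at 2.64, 2.88 and 2.6 CPM, while Cbln3 and Fat2 were at their lowest in KO F1 and Gabra6 had 0 counts there. The gene Hoxb4 had 9 counts in WT 1, where Gabra6 had 0, against 2 in KO 1 and 8 in WT F1. Avp and Oxt stood at 5.24 and 8.26 CPM in KO 1 and were highest in WT F1, at 38.2 and 27.5 CPM, so the hormone genes of the labelled nucleus differed between the libraries with the highest cerebellar levels. Of the 87 genes with the shared pattern 73 were protein-coding.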
